A study of Homo sapiens with 18 samples.

Results

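Named antisense RNA genes are genes whose symbol is that of another gene followed by -AS and a number, such as IRF1-AS1 or SLC7A11-AS1. Their transcripts run, as a rule, on the strand opposite to the gene in the name, here called the host gene, and the RNA is not translated. The count table listed 1826 of them, of which 573 were at 0 in every library. A gene was kept when its counts over the 18 libraries summed to at least 100 and its highest level was at least 1 CPM (counts for each M counts of the library), the filter that was applied to every gene, which left 371 of 1826 named antisense genes, among 15167 tested genes of 62754 listed. Of the others, 1169 had a total under 100 and 286 had a total of at least 100 but a highest level under 1 CPM. The members were thus chosen by measured levels. Where a gene reached 1 CPM only in the groups in which it is high, that difference helped to choose it and is a description. Just inside the second threshold were PCDHB1-AS1 with a highest level of 1.00 CPM (301 counts in total) and SCOC-AS1 with 1.00 CPM, and just outside it were MIA2-AS1 with 0.988 CPM and DUT-AS1 with 0.985 CPM.

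The libraries came from EA.hy926 cells, a line that was made by fusing human umbilical vein endothelium with the lung epithelial line A549. Mock cells received transfection reagent alone, siNT cells 10 nM non-targeting siRNA (the study lists control siRNA-A, B and C and does not say which was sequenced), and siELMO1 cells 10 nM of a pool of siRNAs against ELMO1, an adaptor that activates the small GTPase Rac. RNA was taken 48 h later (0 h), or after a further 24 h with 1 μg/ml poly(I:C), a synthetic double-stranded RNA that is sensed by TLR3. There were thus 6 conditions of 3 libraries each, and no library of cells kept for 24 h without poly(I:C) was analysed here, so that the effects of poly(I:C) and of the added time cannot be told apart. The paper reports that many siNT cells died after poly(I:C), that far fewer Mock cells did and that siELMO1 cells were protected. It proposes this death as the likely reason for the lower inflammatory transcripts in siNT. Whether cell death bears on the differences between siNT and the other transfections after poly(I:C) was not tested.

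Libraries held 40.4 to 73.9 M estimated counts, and the named antisense genes took 0.158% to 0.193% of them. ELMO1 itself was at 2.71 to 3.38 CPM in the control libraries at 0 h and at 0.297 to 0.412 CPM in siELMO1, and at 24 h it was at 1.49 to 3.57 CPM in the controls and 0.149 to 0.346 CPM in siELMO1. Of 9 endothelial markers, 8 were at 3.25 CPM or more in every library and CLDN5 was at 0.213 CPM or less. Of the epithelial markers, KRT8 and KRT18 were at 187 to 620 CPM, EPCAM and KRT19 at 1.32 CPM or less and CDH1 at 0, and the leukocyte markers PTPRC, CD14 and CD3E were at 0.484 CPM or less. One library stood apart from its fellows. The chi-square per degree of freedom between siELMO1 0 h replicate 1 and the other 2 libraries of its group was 70.9 and 79.1, against 10.2 to 29.2 in the 16 other pairs within groups, and the main counts that rest on this library are given with and without it.

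Antisense genes of this kind are long non-coding RNAs that start inside the host, beyond its end, or next to its promoter in the other direction. In the last arrangement both RNAs can come from the same open stretch of DNA, because many human promoters fire both ways. Some antisense RNAs are known to act on the chromatin, splicing or stability of the host, and for many no function is known. An antisense RNA that shares exons with its host also shares, base for base, the complement of its sequence. The library kit keeps the strand of each read, but the sources used here do not state that the counting used it, and without strand the reads of a gene and of its antisense partner cannot be told apart.

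Several of the pairs share a start region, and the sequences of 3 such regions are shown because the antisense gene and its host start close to each other and were called in the comparisons below. Each is the RefSeq promoter window of the antisense gene in GRCh38.p14, from 250 bases before the annotated start to 50 after it, 5′ to 3′ on the antisense strand. Capitals mark the stretch that also lies in the window of the host on the other strand, which is 229 bases for KCNJ2-AS1, 141 for RTCA-AS1 and 194 for SSTR5-AS1. The windows are chr17:70169353-70169652, minus strand (KCNJ2-AS1), chr1:100266125-100266424, minus strand (RTCA-AS1) and chr16:1078682-1078981, minus strand (SSTR5-AS1).
KCNJ2-AS1: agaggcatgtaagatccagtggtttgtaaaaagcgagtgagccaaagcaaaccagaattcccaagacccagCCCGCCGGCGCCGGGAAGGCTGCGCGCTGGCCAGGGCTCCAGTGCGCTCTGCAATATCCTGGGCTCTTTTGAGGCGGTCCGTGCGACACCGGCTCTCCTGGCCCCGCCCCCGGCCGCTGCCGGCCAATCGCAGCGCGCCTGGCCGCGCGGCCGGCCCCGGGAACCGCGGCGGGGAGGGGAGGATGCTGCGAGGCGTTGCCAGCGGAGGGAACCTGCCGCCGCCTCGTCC
RTCA-AS1: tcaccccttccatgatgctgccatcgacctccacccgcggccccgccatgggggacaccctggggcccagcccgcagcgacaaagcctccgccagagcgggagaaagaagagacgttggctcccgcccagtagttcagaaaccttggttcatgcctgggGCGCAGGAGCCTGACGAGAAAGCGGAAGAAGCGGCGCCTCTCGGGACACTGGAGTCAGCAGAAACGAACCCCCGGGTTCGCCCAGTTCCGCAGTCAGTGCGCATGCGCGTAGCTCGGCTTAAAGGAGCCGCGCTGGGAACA
SSTR5-AS1: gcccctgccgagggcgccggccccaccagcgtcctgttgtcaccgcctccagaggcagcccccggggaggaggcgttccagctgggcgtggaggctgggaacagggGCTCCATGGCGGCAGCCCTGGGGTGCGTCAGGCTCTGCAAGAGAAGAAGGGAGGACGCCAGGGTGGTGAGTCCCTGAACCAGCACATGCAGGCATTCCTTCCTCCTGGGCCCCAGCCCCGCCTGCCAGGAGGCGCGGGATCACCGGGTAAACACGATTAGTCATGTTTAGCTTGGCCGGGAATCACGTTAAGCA

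The annotation placed 365 of the 371 antisense genes on the strand opposite to the host, 342 with gene bodies that overlap it and 280 with shared exon bases. In 152 the start lay within 1000 bases of the host's start, 81 of them upstream of it. The 5 genes named after a HOX cluster (HOXA-AS2, HOXA-AS3, HOXB-AS3, HOXC-AS2 and HOXD-AS2) have no single host in the table, and the host of 40 others was listed but did not pass the filter, so that 326 pairs were tested on both sides, with 322 distinct hosts. Of the 371, 369 are annotated as lncRNA. The transcript with the most counts had a median length of 2261 bases and 3 exons, and in 58 genes it had 1 exon. Exon bases were shared with some gene on the opposite strand in 312, and 106 also overlapped a gene on their own strand, whose reads may be split between them.

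The antisense genes were low. Their median level over the 18 libraries was 1.84 CPM, against 22.0 CPM for all tested genes, 112 had a mean under 1 CPM and 36 had a mean of at least 10 CPM. Compared per length, as TPM (transcript counts divided by transcript length and scaled to an equal total in each library), 279 of the 326 tested antisense genes were below the host and 47 were above it, and the median antisense gene was at 10.2% of its host, with quartiles of 3.29% and 39.7%. VIM-AS1, which shares 656 exon bases with VIM, the intermediate filament vimentin, was at 7.51 TPM beside 5909 TPM, or 0.127% of its host.

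**Figure D1:**
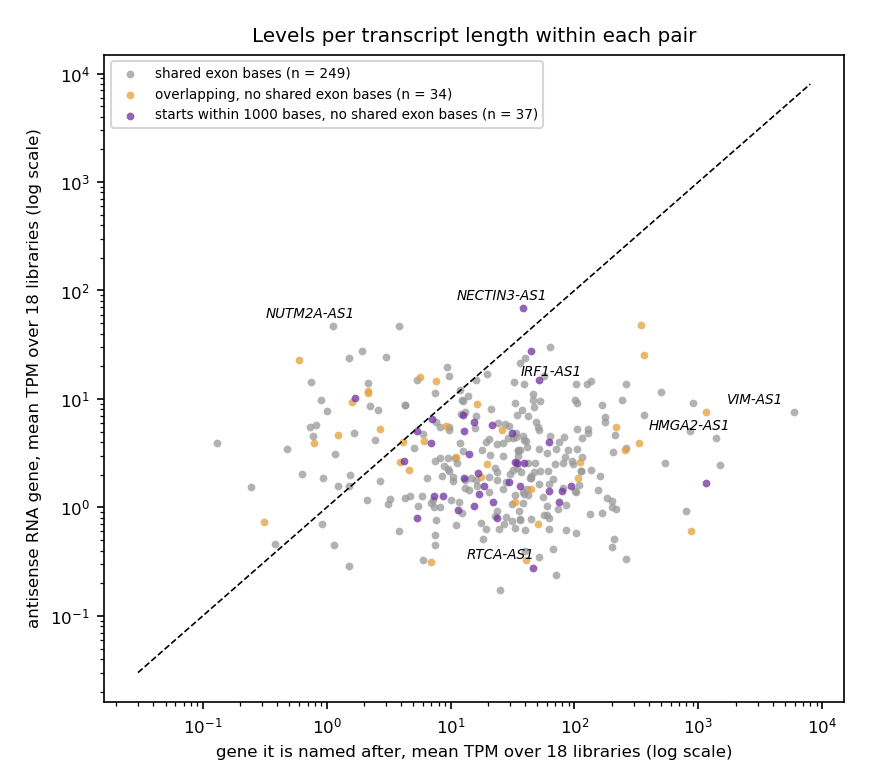
Mean level per length of each antisense gene (vertical axis, TPM, log scale) against that of the gene it is named after (horizontal axis, TPM, log scale), averaged over the 18 libraries, 1 point per pair. Of the tested pairs, 5 that lie apart and 1 on the same strand are not drawn. Over all 326 tested pairs, 279 are below equal level, and the median pair is at 10.2%.

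The highest antisense gene was FGD5-AS1 (chr3:14920347-14948424 of GRCh38), with a mean of 234 CPM. It stands next to a gene that these cells barely express. FGD5, a guanine nucleotide exchange factor of endothelial cells, had a mean of 0.0112 TPM and FGD5-AS1 had 159.9 TPM. FGD5-AS1 was at 304, 309 and 313 CPM in Mock at 0 h and at 197, 178 and 191 CPM after poly(I:C), a change of -0.71 ± 0.06 on the log2 scale (± SE; adjusted p = 7.4e-09), and it fell in siNT and siELMO1 as well. NUTM2A-AS1 with 49.7 CPM, MAGI2-AS3 with 46.6 CPM, NECTIN3-AS1 with 44 CPM and OIP5-AS1 with 35.8 CPM followed, and each of these 4 was also above its host per length. OIP5-AS1, known as a conserved cytoplasmic lncRNA, was at 11.3 TPM beside 7.48 TPM of OIP5, a factor that loads centromeric histone.

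Calls below rest on edgeR's quasi-likelihood test with Benjamini-Hochberg adjustment over all 15167 genes, at an adjusted p under 0.05, and SE denotes the standard error of the fit. Over 10 comparisons, 301 of the 371 antisense genes were called at least once and 70 in none, or 81.1% called, when 93.2% of all genes were. In most comparisons a smaller share of antisense genes than of all genes was called. These shares are not matched for level. With poly(I:C) in Mock, 34 rose and 16 fell of 83 with a mean of at least 5 CPM. Of the 288 below that level 62 rose and 39 fell, when 30.7% and 29.6% of all genes did. The quartiles of the log2 fold change there were -0.34 and 0.58 for antisense genes and -0.34 and 0.37 for all genes. Whether antisense genes respond less at equal level was not tested.

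**Figure D2:**
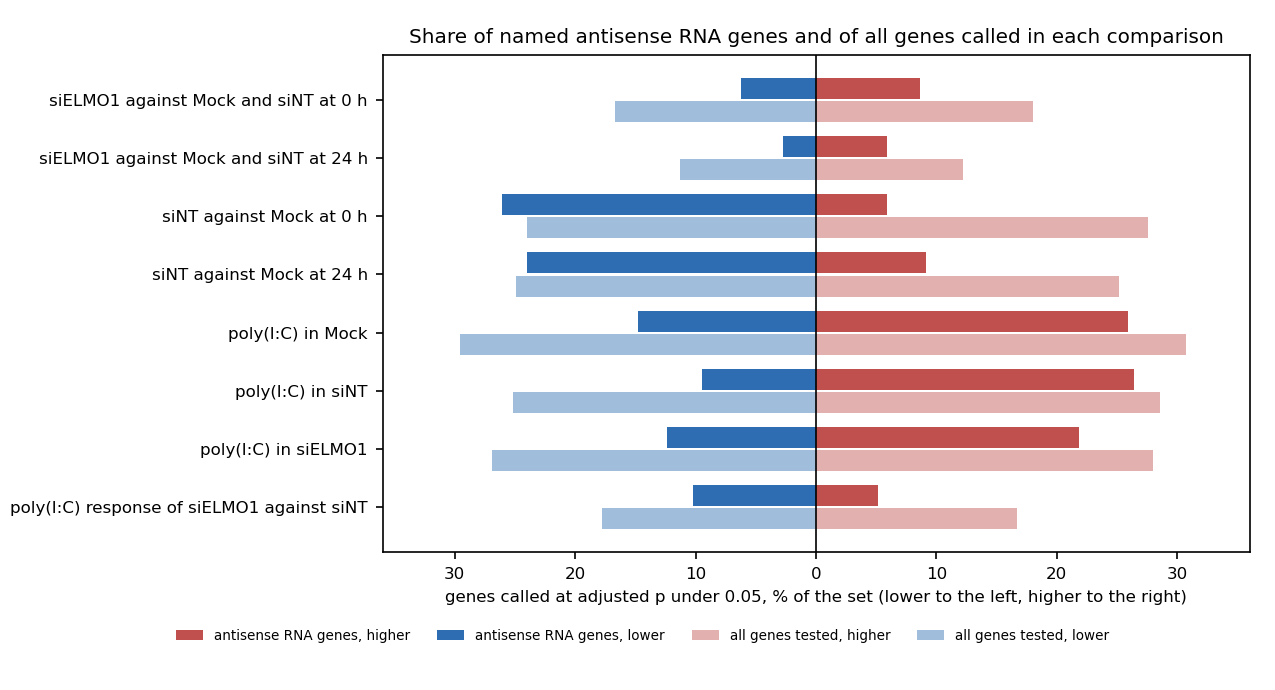
Percent of the 371 named antisense genes and of all 15167 tested genes called higher and lower (horizontal axis, percent) in each of the 8 comparisons (vertical axis). The antisense bars are shorter than those of all genes except where siNT was lower than Mock at 0 h, 26.1% against 24.0%.

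After poly(I:C) more antisense genes rose than fell in all 3 transfections. In Mock cells 96 rose and 55 fell, when 30.7% and 29.6% of all genes did so, so that 25.9% and 14.8% of the antisense genes were called. In siNT cells 98 rose and 35 fell (28.6% and 25.2% of all genes), and in siELMO1 cells 81 rose and 46 fell (28.0% and 26.9% of all genes), or 88 and 46 without siELMO1 0 h replicate 1. The median log2 fold change of the antisense genes was 0.07, 0.25 and 0.06 in Mock, siNT and siELMO1, against 0.01, 0.01 and -0.00 for all genes. Scaled by library totals instead of by TMM factors, the median over all genes in Mock was -0.11, that of the antisense genes -0.05, and 86 rose and 73 fell. Called in all 3 transfections were 43 that rose and 16 that fell, or 11.6% and 4.31%, when 14.4% and 11.6% of all genes were, and 41 and 16 without siELMO1 0 h replicate 1.

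USP30-AS1, which starts inside the gene for the mitochondrial deubiquitinase USP30, went from at or near 0 counts to a level above 1 CPM. All 3 Mock libraries at 0 h held 0 counts, siNT held 0, 0 and 0.0299 CPM and siELMO1 0.0136, 0 and 0 CPM. After poly(I:C) the Mock libraries were at 4.65, 4.29 and 5.70 CPM, the siNT libraries at 1.36, 2.13 and 3.20 CPM and the siELMO1 libraries at 3.25, 4.34 and 5.04 CPM. No library at 24 h overlapped one at 0 h. USP30-AS1 reached the 1 CPM of the filter only at 24 h, where it is high, so that this rise is a description. Against the limit of 3 counts per library that a count of 0 allows, the level in Mock was at least 111-fold higher after poly(I:C) (adjusted p = 1.5e-09), a limit that covers counting error only and takes 1 read as 1 count. USP30 itself was at 9.93 ± 0.723 CPM (SD, n = 3) before and 9.46 ± 1.69 CPM after, a log2 fold change of -0.07 ± 0.11 (adjusted p = 0.61).

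IRF1-AS1 (chr5:132410636-132488702, plus strand) and IRF1, the interferon regulatory factor that drives antiviral genes, rose together. IRF1-AS1 was at 2.00, 1.80 and 1.83 CPM in Mock at 0 h and 18.2, 18.6 and 24.0 CPM at 24 h. In siNT it went from 2.26, 2.17 and 2.65 to 8.22, 8.83 and 14.4 CPM, and in siELMO1 from 1.43, 1.88 and 1.44 to 16.7, 16.0 and 18.1 CPM. Every 24 h library was above every 0 h library, and siNT rose least. The log2 fold changes were 3.43 ± 0.19, 2.15 ± 0.18 and 3.43 ± 0.20, and those of IRF1 were 2.97 ± 0.12, 2.02 ± 0.11 and 2.95 ± 0.12 (adjusted p of 2.4e-08 or less for all 6). The difference of the responses, siELMO1 minus siNT, was 1.28 ± 0.26 for IRF1-AS1 (adjusted p = 0.00094) and 0.93 ± 0.15 for IRF1 (adjusted p = 0.00014). The pair shares 2805 exon bases. The RefSeq promoter window of IRF1 (chr5:132490724-132491023, minus strand, GRCh38.p14) is shown because poly(I:C) sensing activates NF-κB, and it holds, in capitals, a match to the NF-κB element that starts 50 bases before the annotated start.
IRF1: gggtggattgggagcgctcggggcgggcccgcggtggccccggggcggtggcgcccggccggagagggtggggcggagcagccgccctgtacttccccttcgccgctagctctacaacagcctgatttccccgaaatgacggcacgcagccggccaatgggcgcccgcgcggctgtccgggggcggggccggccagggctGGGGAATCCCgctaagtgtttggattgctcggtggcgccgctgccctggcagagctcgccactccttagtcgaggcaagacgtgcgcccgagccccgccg
Among 35114 promoter windows of the same length 11.3% held such a match on either strand, and among 339 windows of the antisense genes 15.6% did. The interferon-stimulated response element was in 3.57% of all windows and 3.54% of those of the antisense genes. A match is a run of letters and not a binding event.

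IL6-AS1 was not called where its host rose. IL6, a cytokine of the inflammatory response, was at 1.41 ± 0.251 CPM in Mock at 0 h and 428 ± 15.7 CPM at 24 h (SD, n = 3), a log2 fold change of 8.24 ± 0.20 (adjusted p = 4.3e-16). IL6-AS1, which shares 428 exon bases with it, was at 0.336, 0.325 and 0.870 CPM before and 0.400, 0.514 and 1.01 CPM after (log2 fold change 0.32 ± 0.48, adjusted p = 0.58). The libraries of both times overlapped for IL6-AS1, which was called in none of the 10 comparisons. This pair was chosen after its values were seen.

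The other antisense genes with the largest rise in all 3 transfections were HOXC-AS2, SUGCT-AS1 and NAV2-AS6. HOXC-AS2, between genes of the HOXC cluster, was at 0.122, 0.325 and 0.281 CPM in Mock at 0 h and 4.82, 6.83 and 7.5 CPM at 24 h (log2 fold change 4.69 ± 0.48, adjusted p = 1.6e-07). It too reached the 1 CPM of the filter only at 24 h, so that its rise is a description. SUGCT-AS1 overlaps SUGCT, a mitochondrial CoA transferase, without shared exon bases. It went from 1.76, 1.89 and 1.55 to 15.0, 14.4 and 17.9 CPM in Mock (log2 fold change 3.18 ± 0.19, adjusted p = 1.2e-10) while SUGCT fell by 0.41 on the log2 scale (adjusted p = 0.0098). In siNT cells both rose, with log2 fold changes of 3.17 ± 0.20 and 0.53 ± 0.13. NAV2-AS6 starts 218 bases upstream of NAV2, a protein of the neuron navigator family, and both rose in all 3 transfections. NAV2-AS6 went from 5.44, 4.83 and 4.96 to 47.5, 47.0 and 52.5 CPM in Mock and from 3.06, 2.34 and 3.79 to 32.0, 34.4 and 37.3 CPM in siELMO1, with log2 fold changes of 3.27 ± 0.13 and 3.48 ± 0.14 (adjusted p of 3.1e-13 and 3.8e-13), and NAV2 changed by 1.36 ± 0.07 and 1.69 ± 0.07.

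The largest fall was that of SSTR5-AS1, whose start lies 153 bases from that of SSTR5, a somatostatin receptor. SSTR5-AS1 was at 2.48, 2.87 and 3.57 CPM in Mock at 0 h and 0.248, 0.282 and 0.394 CPM after poly(I:C), and in siNT it went from 4.09, 3.65 and 4.13 to 0.726, 0.161 and 0.910 CPM. SSTR5 went from 10.2, 9.83 and 9.88 to 0.933, 1.71 and 1.85 CPM in Mock. SSTR5-AS1 reached the 1 CPM of the filter only at 0 h, so that its fall is a description. Neither gene had a 24 h library as high as a 0 h library. In Mock they changed on the log2 scale by -3.26 ± 0.49 for the antisense gene and -2.73 ± 0.28 for the host (adjusted p of 1.8e-05 and 1.9e-07). CLN8-AS1 fell with its host CLN8, which carries lysosomal enzymes out of the endoplasmic reticulum, with log2 fold changes in Mock of -1.25 ± 0.15 and -0.97 ± 0.08. LOXL1-AS1 also fell with its host, the elastin cross-linking enzyme LOXL1 (-0.83 ± 0.12 and -0.86 ± 0.16). SMARCA5-AS1 fell while its host, a chromatin-remodelling ATPase, rose. It was at 1.82, 2.20 and 1.5 CPM before and 0.781, 0.944 and 0.617 CPM after in Mock, a log2 fold change of -1.23 ± 0.25 (adjusted p = 0.00038), and SMARCA5 changed by 1.16 ± 0.06 (adjusted p = 3.2e-11). SLC25A34-AS1, named after a mitochondrial carrier, fell in all 3 transfections, by 1.19 on the log2 scale in Mock.

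**Figure D3:**
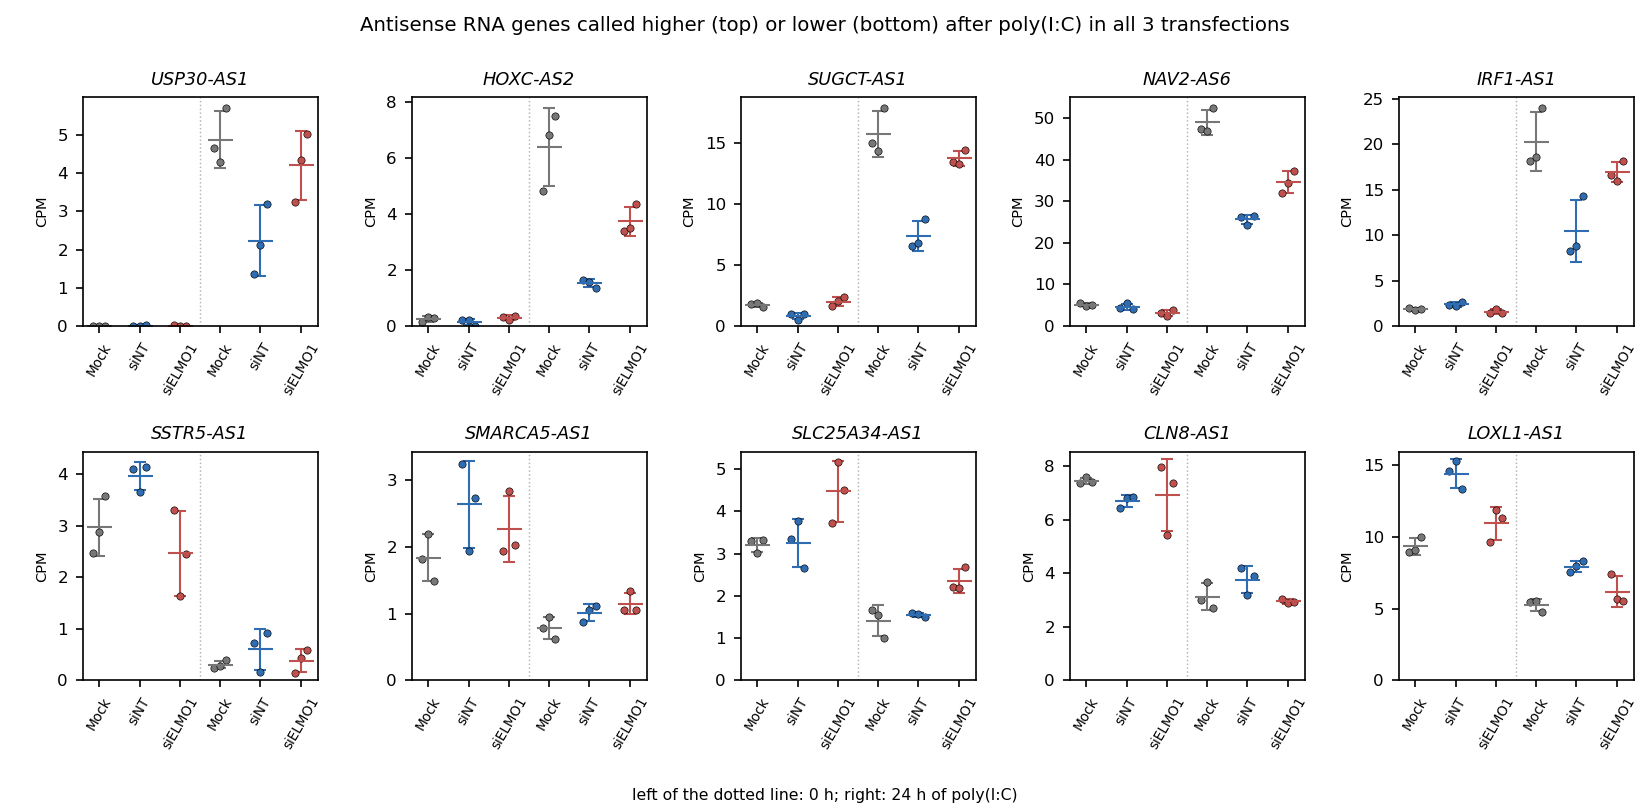
Level of 10 antisense genes in each of the 18 libraries (vertical axis, CPM after TMM scaling, from 0) by transfection and time (horizontal axis), with a point per library and a line with error bars at the mean ± SD of each group of 3. In the 5 genes of the top row every 24 h point lies above the 0 h points of the same transfection, and in the 5 of the bottom row it lies below them.

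At 0 h siELMO1 cells differed from both controls in 55 antisense genes. Of these, 32 were higher and 23 lower than both Mock and siNT, or 8.63% and 6.20%, when 18.0% and 16.7% of all genes were. Without siELMO1 0 h replicate 1 the counts were 35 and 26. The number higher was 21 without Mock 0 h replicate 1, 20 without Mock 0 h replicate 2 and 21 without siELMO1 0 h replicate 3. Against the controls singly the counts were unlike each other. Against Mock 44 were higher and 50 lower, or 11.9% and 13.5%, when 27.9% and 22.4% of all genes were. Against siNT 111 were higher and 47 lower, or 29.9% and 12.7%, when 31.3% of all genes were higher and 31.3% lower, so that the share higher was near that of all genes. Without siELMO1 0 h replicate 1 these counts were 46, 49, 105 and 47. The median log2 fold changes were -0.00 against Mock and 0.21 against siNT, while the medians over all genes were 0.04 and 0.00. Scaled by library totals, 28 were higher and 55 lower than in Mock. For other annotated lncRNA genes the median against siNT was 0.13, for 154 genes named as divergent transcripts 0.50 and for 207 genes named LINC 0.32.

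KCNJ2-AS1 and KCNJ2, an inward rectifier potassium channel, were both higher in siELMO1 at 0 h. KCNJ2-AS1 was at 4.49, 4.14 and 4.25 CPM in siELMO1, 1.94, 1.51 and 2.15 CPM in Mock and 1.06, 1.12 and 0.584 CPM in siNT. KCNJ2 was at 63.2, 60.8 and 61.0 CPM in siELMO1, 26.5, 29.0 and 29.4 CPM in Mock and 25.2, 22.6 and 25.7 CPM in siNT. The siELMO1 libraries lay above all 6 controls for both genes. The log2 fold changes against Mock and siNT were 1.20 ± 0.28 and 2.22 ± 0.29 for the antisense gene (adjusted p of 0.0017 and 3.4e-06) and 1.12 ± 0.11 and 1.33 ± 0.11 for the host. Their starts are 128 bases apart, in the shared window shown above. At 24 h KCNJ2 was still higher than in both controls, and KCNJ2-AS1 was at 1.18, 1.10 and 0.919 CPM beside 0.629, 0.663 and 0.600 CPM in Mock (adjusted p = 0.050).

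RTCA-AS1 shares its start region with RTCA, an RNA cyclase, and the pair went opposite ways. RTCA-AS1 was at 1.16, 1.18 and 1.80 CPM in siELMO1 at 0 h, 0.459, 0.771 and 0.819 CPM in Mock and 0.732, 0.247 and 0.539 CPM in siNT. The siELMO1 libraries lay above all 6 controls. Its log2 fold changes were 1.01 ± 0.36 and 1.44 ± 0.37 (adjusted p of 0.028 and 0.0027), and those of RTCA were -0.12 ± 0.05 and -0.23 ± 0.05 (adjusted p of 0.041 and 0.00033). RTCA-AS1 reached the 1 CPM of the filter only in siELMO1 at 0 h, where it is high, so that its difference is a description. The call against Mock was lost without Mock 0 h replicate 1 or 2 or without siELMO1 0 h replicate 3, with log2 fold changes of 0.76 to 1.07. MMP25-AS1, named after a membrane-anchored matrix metalloproteinase, was at 4.07, 7.96 and 8.85 CPM in siELMO1 beside 2.87, 3.30 and 3.34 CPM in Mock and 3.12, 3.32 and 2.43 CPM in siNT. It also rose with poly(I:C) in Mock and siNT. SLC38A4-AS1, named after an amino acid transporter, was at 2.82, 2.41 and 2.98 CPM in siELMO1 beside 1.27, 1.10 and 1.52 CPM in Mock (log2 fold change 1.08 ± 0.28, adjusted p = 0.0039).

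TMPO-AS1, DEPDC1-AS1 and PRC1-AS1 were lower in siELMO1 at 0 h together with their hosts. TMPO encodes a protein of the nuclear lamina, PRC1 a cross-linker of the mitotic spindle and DEPDC1 a protein that is made in mitosis. TMPO-AS1 was at 0.803, 0.879 and 1.14 CPM in siELMO1, 6.38, 6.92 and 6.26 CPM in Mock and 2.99, 3.14 and 2.40 CPM in siNT. TMPO was at 101 ± 4.57, 302 ± 1.36 and 280.1 ± 2.68 CPM (SD, n = 3). None of the siELMO1 libraries reached a control library. TMPO-AS1 had log2 fold changes of -2.80 ± 0.22 against Mock and -1.60 ± 0.22 against siNT (adjusted p of 8.4e-09 and 4.5e-06). DEPDC1-AS1 was at 0.286, 0.301 and 0.0999 CPM in siELMO1, 0.596, 0.825 and 0.947 CPM in Mock and 0.628, 1.02 and 0.898 CPM in siNT. The log2 fold changes of DEPDC1-AS1 were -1.77 ± 0.40 and -1.88 ± 0.40, and those of DEPDC1 were -2.81 ± 0.08 and -2.57 ± 0.08. PRC1-AS1 was at 0.204, 0.0502 and 0.439 CPM in siELMO1, 1.02, 0.825 and 0.716 CPM in Mock and 1.11, 0.855 and 0.943 CPM in siNT. The log2 fold changes of PRC1-AS1 were -1.85 ± 0.45 and -2.03 ± 0.45, and those of PRC1 were -2.22 ± 0.07 and -1.63 ± 0.07. The DEPDC1 and PRC1 pairs were chosen as those called in the same direction with the largest change. DEPDC1-AS1 and PRC1-AS1 reached the 1 CPM of the filter only in control libraries, so that their lower levels in siELMO1 are descriptions. Of the 6 antisense genes with a host in the group of cell cycle, replication and repair genes, TMPO-AS1 was called lower than both controls at 0 h and no other was called against both. That group was set by host symbol and leaves out DEPDC1, PRC1 and OIP5. Their antisense genes, counted with the other hosts, were also called lower than both controls, so the group is not a rate for all cell cycle hosts.

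The windows of the DEPDC1 and PRC1 pairs are shown because those of the hosts hold a CCAAT box followed by TTTGAA, letters of the CHR element that is known from promoters of cell cycle genes. The windows of TMPO and OIP5, whose antisense genes were also lower, hold CCAAT and no TTTGAA, so these letters are not common to the hosts named above. Capitals mark each CCAAT or TTTGAA on either strand, in the RefSeq windows of GRCh38.p14 at chr1:68497033-68497332, minus strand (DEPDC1), chr1:68496426-68496725, plus strand (DEPDC1-AS1), chr15:90994486-90994785, minus strand (PRC1) and chr15:90966119-90966418, plus strand (PRC1-AS1).
DEPDC1: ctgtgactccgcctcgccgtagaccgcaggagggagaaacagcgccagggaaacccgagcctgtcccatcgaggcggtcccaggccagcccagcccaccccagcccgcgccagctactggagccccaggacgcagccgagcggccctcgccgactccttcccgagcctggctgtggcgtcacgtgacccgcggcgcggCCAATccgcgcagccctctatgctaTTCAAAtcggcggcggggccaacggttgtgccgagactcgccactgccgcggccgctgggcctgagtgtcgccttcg
DEPDC1-AS1: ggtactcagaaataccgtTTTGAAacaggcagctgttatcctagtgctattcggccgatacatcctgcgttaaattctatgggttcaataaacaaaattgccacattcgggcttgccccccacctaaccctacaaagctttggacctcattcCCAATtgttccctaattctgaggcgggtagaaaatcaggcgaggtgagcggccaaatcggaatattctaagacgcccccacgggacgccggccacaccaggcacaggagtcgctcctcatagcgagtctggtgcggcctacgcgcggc
PRC1: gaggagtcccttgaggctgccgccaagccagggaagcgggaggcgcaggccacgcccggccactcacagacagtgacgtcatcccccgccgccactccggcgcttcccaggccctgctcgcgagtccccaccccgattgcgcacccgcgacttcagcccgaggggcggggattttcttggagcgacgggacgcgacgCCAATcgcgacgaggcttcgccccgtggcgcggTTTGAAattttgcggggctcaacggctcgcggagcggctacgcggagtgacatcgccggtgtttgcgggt
PRC1-AS1: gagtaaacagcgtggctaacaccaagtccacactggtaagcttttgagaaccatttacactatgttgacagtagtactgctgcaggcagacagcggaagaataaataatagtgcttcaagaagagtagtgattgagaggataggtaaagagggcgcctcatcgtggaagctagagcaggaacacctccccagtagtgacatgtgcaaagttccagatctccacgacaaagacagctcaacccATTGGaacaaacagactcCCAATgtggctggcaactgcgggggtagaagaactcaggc
In DEPDC1 the CCAAT box begins 52 bases before the start and the TTTGAA, which lies on the other strand and is printed as TTCAAA, 27 bases. In PRC1, where both lie on the printed strand, they begin 53 and 20 bases before it. DEPDC1-AS1 holds the same letters 98 and 232 bases before its start, in the other order, and PRC1-AS1 holds 2 CCAAT matches and no TTTGAA in this window. CCAAT was in 34.6% of all windows and 29.5% of those of the antisense genes, TTTGAA in 15.2% and 9.44%, and both in 5.90% and 3.83%.

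PTPRG-AS1, TRAF3IP2-AS1 and MIF-AS1 were lower as well. PTPRG-AS1, named after a receptor tyrosine phosphatase, was at 1.48, 0.804 and 1.22 CPM in siELMO1, 4.33, 4.99 and 3.47 CPM in Mock and 2.39, 2.53 and 1.78 CPM in siNT. TRAF3IP2-AS1, named after the adaptor of the interleukin 17 receptor, was at 2.04, 0.779 and 1.38 CPM beside 3.53, 3.25 and 2.75 CPM in Mock, with log2 fold changes of -1.15 ± 0.24 and -1.09 ± 0.25 (adjusted p of 0.00076 and 0.00089). MIF-AS1, named after the cytokine MIF, was at 8.02, 3.59 and 3.93 CPM beside 9.54, 10.7 and 9.85 CPM in Mock and 9.34, 8.47 and 11.9 CPM in siNT, with replicate 1 well above the other 2 siELMO1 libraries. ADIRF-AS1, named after an adipogenesis factor, was lower at both times and is given below.

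**Figure D4:**
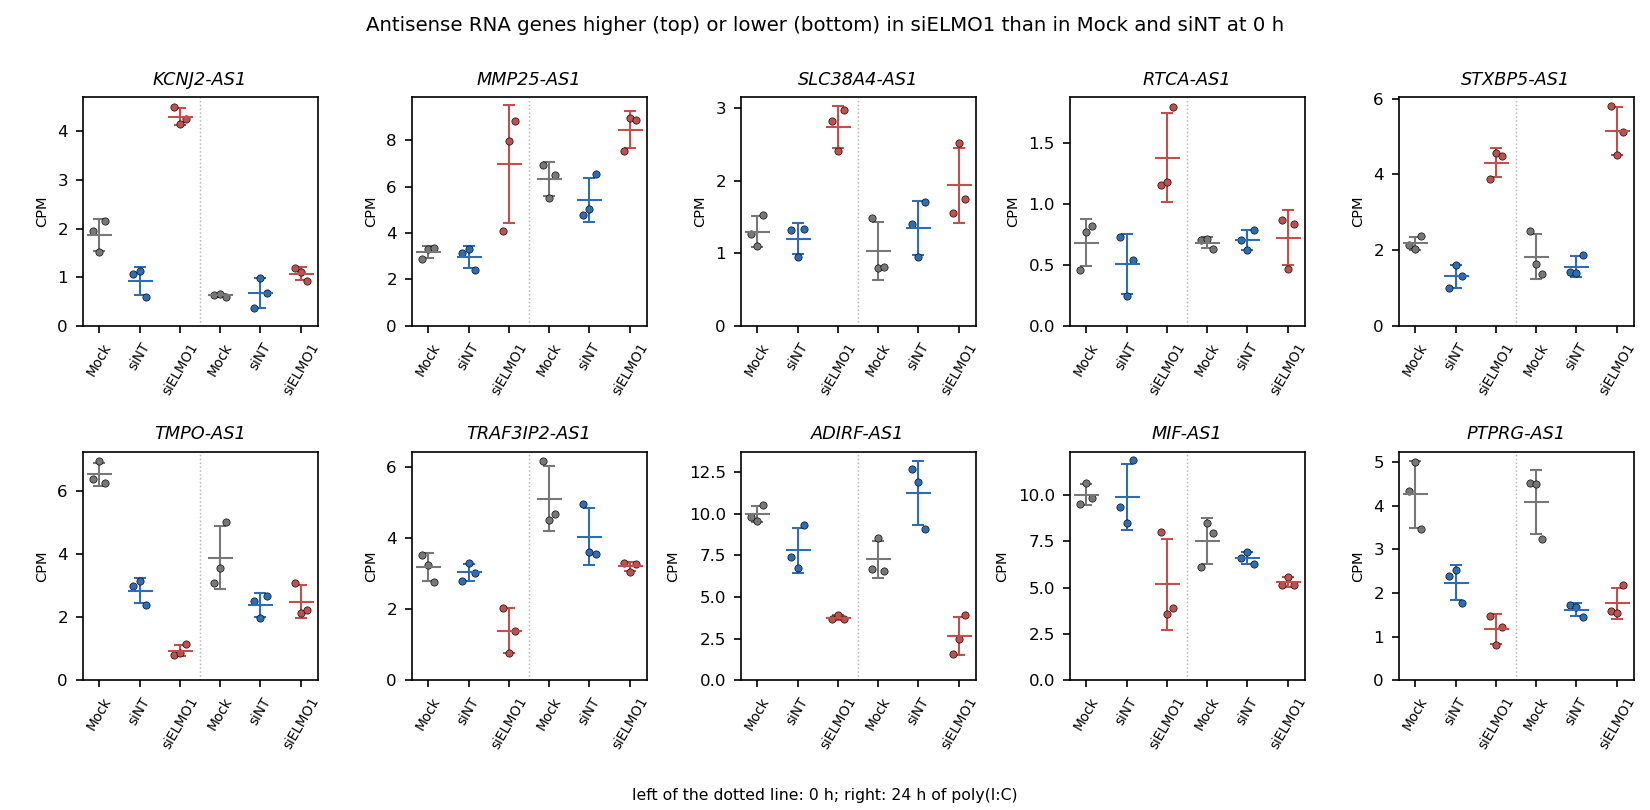
Level of 10 antisense genes in each of the 18 libraries (vertical axis, CPM after TMM scaling, from 0) by transfection and time (horizontal axis), with a point per library and a line with error bars at the mean ± SD of each group of 3. At 0 h the siELMO1 points lie above all 6 control points in the 5 genes of the top row and below them in the 5 of the bottom row.

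At 24 h after poly(I:C) 22 antisense genes were higher and 10 lower in siELMO1 than in both controls, or 5.93% and 2.70%, when 12.2% and 11.3% of all genes were. Both times shared 9 that were higher, or 2.43%, when 8.25% of all genes were (CLDN14-AS1, FLRT2-AS1, GTF3C2-AS2, NECTIN3-AS1, PNISR-AS1, SLC25A34-AS1, SLC9A3-AS1, SNAI3-AS1 and STXBP5-AS1) and 3 that were lower (ADIRF-AS1, ATP6V1B1-AS1 and SLC7A11-AS1), or 0.809% when 6.47% of all genes were. Without siELMO1 0 h replicate 1 the counts were 9 and 2. STXBP5-AS1 was at 3.87, 4.57 and 4.49 CPM in siELMO1 at 0 h beside 2.13, 2.03 and 2.38 CPM in Mock and 1.00, 1.61 and 1.32 CPM in siNT. At 24 h it was at 5.79, 4.51 and 5.12 CPM beside 2.5, 1.62 and 1.37 CPM in Mock and 1.43, 1.39 and 1.87 CPM in siNT. Its 24 h log2 fold changes against Mock and siNT were 1.49 ± 0.22 and 1.71 ± 0.22 (adjusted p of 2.5e-05 and 5.0e-06). The siELMO1 libraries lay above all 6 controls at either time. STXBP5, the syntaxin-binding protein tomosyn, had 0.15 ± 0.07 against Mock at 0 h (adjusted p = 0.096), and at 24 h it was higher than in Mock (0.33 ± 0.07) and lower than in siNT (-0.44 ± 0.07).

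ADIRF-AS1 was at 3.67, 3.92 and 3.69 CPM in siELMO1 at 0 h beside 9.79, 9.57 and 10.5 CPM in Mock and 7.41, 6.71 and 9.30 CPM in siNT. At 24 h it was at 1.59, 2.5 and 3.90 CPM beside 6.70, 8.52 and 6.54 CPM in Mock and 12.7, 11.9 and 9.09 CPM in siNT. Every siELMO1 library was below every control library of its time, and the log2 fold changes at 24 h were -1.46 ± 0.23 and -2.09 ± 0.23 (adjusted p of 4.6e-05 and 6.9e-07). ADIRF was lower than both controls at 0 h, and at 24 h its log2 fold changes were -0.37 ± 0.29 against Mock (adjusted p = 0.32) and -1.53 ± 0.28 against siNT (adjusted p = 0.00022).

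SLC7A11-AS1 lies across the gene for the cystine importer SLC7A11, and both were lower in siELMO1 at both times. SLC7A11-AS1 was at 0.698, 0.715 and 0.480 CPM in siELMO1 at 24 h, 2.19, 1.96 and 1.95 CPM in Mock and 1.19, 1.34 and 1.45 CPM in siNT. SLC7A11 was at 51.8, 47.5 and 41.6 CPM in siELMO1, 171, 199 and 163 CPM in Mock and 305, 300.5 and 226 CPM in siNT. The groups did not overlap in either gene. SLC7A11-AS1 reached the 1 CPM of the filter only in the control libraries at 24 h, so that its differences from these libraries are descriptions. SLC7A11-AS1 had log2 fold changes of -1.68 ± 0.39 and -1.06 ± 0.39 at 24 h (adjusted p of 0.0018 and 0.028), and those of SLC7A11 were -1.92 ± 0.11 and -2.56 ± 0.11. With poly(I:C) the pair parted. SLC7A11-AS1 rose in Mock from 0.856, 0.798 and 0.345 CPM (1.61 ± 0.38, adjusted p = 0.0015) while SLC7A11 changed by -1.37 ± 0.10 (adjusted p = 2.5e-09). The call of SLC7A11-AS1 against siNT at 24 h was lost without siNT 24 h replicate 2 or 3 or siELMO1 24 h replicate 3, and at 0 h 1 or both calls were lost without siNT 0 h replicate 2, siELMO1 0 h replicate 1 or siELMO1 0 h replicate 3, with log2 fold changes of -0.89 to -1.16.

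VIM-AS1 was higher in siELMO1 at 24 h, at 5.69, 5.25 and 8.99 CPM beside 5.10, 1.87 and 1.75 CPM in Mock and 3.5, 1.79 and 2.73 CPM in siNT. The lowest siELMO1 library was close to Mock replicate 1. Its log2 fold changes were 1.20 ± 0.37 and 1.31 ± 0.37 (adjusted p of 0.014 and 0.0064), and the call against Mock was lost without Mock 24 h replicate 2, Mock 24 h replicate 3 or siELMO1 24 h replicate 3 (0.92 to 0.96). VIM had 0.14 ± 0.05 and 0.19 ± 0.05. DYNLRB2-AS1, named after a dynein light chain, was at 4.23, 3.98 and 3.76 CPM in siELMO1, 1.81, 1.72 and 1.49 CPM in Mock and 0.650, 0.697 and 0.333 CPM in siNT, with no overlap (1.25 ± 0.32 and 2.83 ± 0.35, adjusted p of 0.004 and 2.8e-06). COL5A1-AS1, ITGB8-AS1 and THBS1-AS1, whose hosts are matrix or adhesion genes, were below the filter, with highest levels of 0.149, 0.582 and 0.731 CPM.

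Lower in siELMO1 at 24 h were also HIF1A-AS3, RASAL2-AS1 and MATN1-AS1. HIF1A-AS3, across the gene for the hypoxia-inducible factor HIF1A, was at 6.36, 5.78 and 3.96 CPM in siELMO1, 22.6, 25.7 and 16.8 CPM in Mock and 9.14, 9.94 and 7.74 CPM in siNT. The 3 groups were apart, with Mock highest. Its log2 fold changes were -2.01 ± 0.18 and -0.73 ± 0.18 (adjusted p of 8.5e-08 and 0.0022), and HIF1A was higher than in Mock (0.38 ± 0.08) and had 0.07 ± 0.08 against siNT (adjusted p = 0.48). RASAL2-AS1 starts 120 bases upstream of RASAL2, a GTPase-activating protein for Ras, and both were lower than in both controls. RASAL2-AS1 was at 0.652, 0.668 and 1.46 CPM in siELMO1, 2.72, 3.03 and 1.95 CPM in Mock and 2.41, 2.27 and 3.13 CPM in siNT. The log2 fold changes were -1.48 ± 0.32 and -1.5 ± 0.32, and RASAL2 had -0.54 ± 0.06 and -0.70 ± 0.06. MATN1-AS1 was at 0.774, 0.979 and 0.740 CPM in siELMO1 beside 2.02, 2.75 and 2.04 CPM in Mock and 1.47, 1.64 and 1.26 CPM in siNT. Its call against siNT (log2 fold change -0.81 ± 0.29, adjusted p = 0.026) was lost without siNT 24 h replicate 1 or 2 or siELMO1 24 h replicate 1 or 3 (-0.71 to -0.80).

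More antisense genes were called lower than higher in siNT cells compared with Mock cells. The share called lower was near that of all genes, and the share called higher was below it. At 0 h 22 were higher and 97 lower in siNT than in Mock, or 5.93% and 26.1%, when 27.6% and 24.0% of all genes were. The number higher was 12 without Mock 0 h replicate 1, 13 without Mock 0 h replicate 2 and 14 without siNT 0 h replicate 1. At 24 h 34 were higher and 89 lower, or 9.16% and 24.0%, when 25.2% and 24.9% of all genes were. The median log2 fold changes of the antisense genes were -0.24 at 0 h and -0.15 at 24 h, against 0.03 and 0.00 for all genes, and 50 were lower and 9 higher at both times, or 13.5% and 2.43%, when 13.2% and 15.1% of all genes were. The same sign was seen in other non-coding genes. The medians at 0 h were -0.13 for 1493 other annotated lncRNA genes, -0.47 for the divergent transcripts and -0.31 for the LINC genes. The antisense genes took 0.186% to 0.188% of all counts in Mock at 0 h, 0.158% to 0.162% in siNT and 0.170% to 0.184% in siELMO1, so that Mock and siNT did not overlap.

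At 0 h the shift differed in size with the structure of the antisense gene. The 58 whose main transcript has 1 exon had a median of -0.52 at 0 h, with 23 called, each of them lower, and the 313 with 2 or more exons had -0.19, with 22 higher and 74 lower. The 152 that start within 1000 bases of the host's start had -0.31, with 4 higher and 42 lower, and the 214 that start farther away had -0.19, with 18 higher and 55 lower. Against siNT at 0 h, where siELMO1 shares these siNT libraries, the 1-exon genes had a median of 0.61 in siELMO1, with 22 higher and 5 lower, or 21 and 7 without siELMO1 0 h replicate 1. For siNT against Mock at 24 h the 1-exon genes had a median of -0.31, with 6 higher and 18 lower, and the others had -0.13. Those that start within 1000 bases had -0.15, with 13 higher and 37 lower, and those farther away -0.16, with 21 higher and 51 lower. The difference by start distance was thus not seen at 24 h. The differences between these classes were not tested.

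EXOC3-AS1, a 1-exon gene whose start lies 16 bases from that of the exocyst subunit EXOC3, was at 0.986, 0.674 and 0.479 CPM in siNT at 0 h, 1.87, 2.00 and 2.61 CPM in Mock and 3.04, 3.14 and 1.86 CPM in siELMO1. The siNT libraries lay below all libraries of Mock and siELMO1. Its log2 fold change, siNT against Mock, was -1.60 ± 0.31 (adjusted p = 0.00034), and EXOC3 had 0.15 ± 0.07 (adjusted p = 0.065). ACVR2B-AS1 and the activin receptor ACVR2B went opposite ways. ACVR2B-AS1 was at 0.553, 0.197 and 0.359 CPM in siNT and 0.872, 1.37 and 1.25 CPM in Mock (-1.64 ± 0.44, adjusted p = 0.0043), and ACVR2B was at 49.5, 43.1 and 45.6 and 23.0, 23.7 and 24.3 CPM (0.96 ± 0.09, adjusted p = 5.1e-08). UBQLN1-AS1, named after the proteasome shuttle ubiquilin, was at 0.673, 0.345 and 0.464 CPM in siNT and 1.64, 1.35 and 1.42 CPM in Mock.

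CIRBP-AS1 was an exception. At 0 h it was at 5.26, 4.28 and 4.42 CPM in siNT beside 1.80, 1.43 and 2.19 CPM in Mock, and at 24 h at 5.10, 5.63 and 5.39 CPM beside 1.81, 2.02 and 1.59 CPM. It was higher in every siNT library, by 1.36 ± 0.20 and 1.57 ± 0.20 on the log2 scale (adjusted p of 1.7e-05 and 4.7e-06), while CIRBP, a cold-inducible RNA-binding protein, was lower (-0.32 ± 0.06 and -0.44 ± 0.06). HMGA2-AS1 was higher with its host, the chromatin protein HMGA2, with log2 fold changes at 0 h of 1.34 ± 0.23 and 0.49 ± 0.05. ESAM-AS1 was higher at 24 h with the endothelial adhesion molecule ESAM (0.99 ± 0.26 and 0.66 ± 0.09). Residuals of Mock and siNT at 24 h correlated by replicate number, which was taken as pairing, although the labels state none. A fit with the number as a block gave 34 higher and 88 lower there.

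The response of FRMD6-AS2 to poly(I:C) differed between the transfections. It went from 9.34, 14.7 and 10.3 CPM at 0 h to 35.6, 31.4 and 25.6 CPM at 24 h in Mock. In siNT it was at 8.22, 10.5 and 10.6 CPM before and 7.91, 8.02 and 8.75 CPM after. The siELMO1 libraries were at 15.2, 13.7 and 13.2 CPM before and 47.7, 48 and 46.1 CPM after, so that at 24 h siNT lay below Mock and siELMO1. It rose in Mock (1.43 ± 0.14) and siELMO1 (1.75 ± 0.14) and had -0.25 ± 0.15 in siNT (adjusted p = 0.17), and the difference of the responses, siELMO1 minus siNT, was 2.00 ± 0.21 (adjusted p = 7.6e-07). FRMD6, a FERM-domain protein of the Hippo pathway, had a difference of 0.05 ± 0.08 (adjusted p = 0.65).

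Over all antisense genes the response to poly(I:C) was larger in siELMO1 than in siNT, in the sense of a higher log2 fold change, in 19 and smaller in 38, or 5.12% and 10.2%, when 16.7% and 17.8% of all genes were. Without siELMO1 0 h replicate 1 the counts were 28 and 42. Whether the reported death of siNT cells after poly(I:C) bears on these counts was not tested. DIRC3-AS1 went from 0.640, 0.327 and 0.20 to 2.40, 2.86 and 1.5 CPM in siELMO1 and from 0.314, 0.641 and 0.554 to 0.898, 0.483 and 0.718 CPM in siNT, a difference of 2.02 ± 0.61 (adjusted p = 0.016). DIRC3-AS1 reached the 1 CPM of the filter only in siELMO1 at 24 h, where it is high, so that this difference is a description. IQSEC3-AS1, in the gene for an ARF exchange factor, held 0 counts in all 3 siELMO1 libraries at 0 h and 1.12, 0.902 and 1.56 CPM at 24 h, at least 20.4-fold higher against the limit of 3 counts per library. It passed the filter only through siELMO1 at 24 h, the group in which it is high, since its highest level elsewhere was 0.495 CPM, so that this rise is a description. In siNT it went from 0.179, 0.0822 and 0.0898 to 0.115, 0.340 and 0.350 CPM, and IQSEC3 rose with it in Mock. PTOV1-AS1 went from 0.433, 0.197 and 0.329 to 0.765, 0.733 and 0.560 CPM in siNT and from 0.857, 1.31 and 2.10 to 0.546, 0.668 and 0.440 CPM in siELMO1, so that the groups moved in opposite directions (difference -2.44 ± 0.60, adjusted p = 0.0043). Of the antisense genes above that were lower in siELMO1 at 0 h, TMPO-AS1 rose with poly(I:C) in siELMO1 by 1.41 ± 0.22 and DEPDC1-AS1 by 1.25 ± 0.40 on the log2 scale, and their differences from siNT were 1.66 ± 0.30 and 2.62 ± 0.56 (adjusted p of 0.00029 and 0.0013).

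Antisense gene and host were set side by side in the 326 tested pairs. With poly(I:C) in Mock both were called in 100 pairs, 75 in the same direction and 25 in opposite directions, and Spearman's rho of the log2 fold changes across pairs was 0.39. In siNT the counts were 52 and 21 with a rho of 0.31, and in siELMO1 57 and 24 with a rho of 0.35, or 59 and 23 without siELMO1 0 h replicate 1. Pairs are genes of the same libraries and not replicates, so rho is a description. The pairs that start within 1000 bases of each other without shared exon bases had the highest value in Mock, 0.62 over 37 pairs, with 11 of 12 pairs called on both sides in the same direction. It was 0.34 over 249 pairs with shared exon bases and 0.36 over 34 that overlap without them.

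For siNT against Mock at 0 h the pairs were unlike this. Both were called in 61 pairs, 32 in the same direction and 29 opposite, with a rho of 0.16. Of the opposite pairs 27 had the antisense gene lower and the host higher and 2 the reverse, and of the others 19 were lower and 13 higher on both sides. The 27 and 2 are to be read beside the 97 antisense genes called lower and 22 called higher in this comparison. In the 37 pairs that start within 1000 bases without shared exon bases rho was -0.40, and 5 of 7 pairs called on both sides were opposite. For siNT against Mock at 24 h the same 37 pairs had a rho of -0.03, with 4 called in the same direction and 5 opposite. All tested pairs then had 43 in the same direction and 28 opposite, with a rho of 0.19, so the negative value was seen at 0 h only. For siELMO1 against siNT at 0 h, which uses the same siNT libraries, 111 antisense genes were called higher and 47 lower. There 95 pairs were called on both sides, 56 the same and 39 opposite, of which 30 had the antisense gene higher and the host lower. Against Mock at 0 h the counts were 26 and 19. Without siELMO1 0 h replicate 1 they were 57 and 37 against siNT and 27 and 22 against Mock. The difference of the poly(I:C) responses had 17 pairs in the same direction and 1 opposite, or 20 and 5 without that library.

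**Figure D5:**
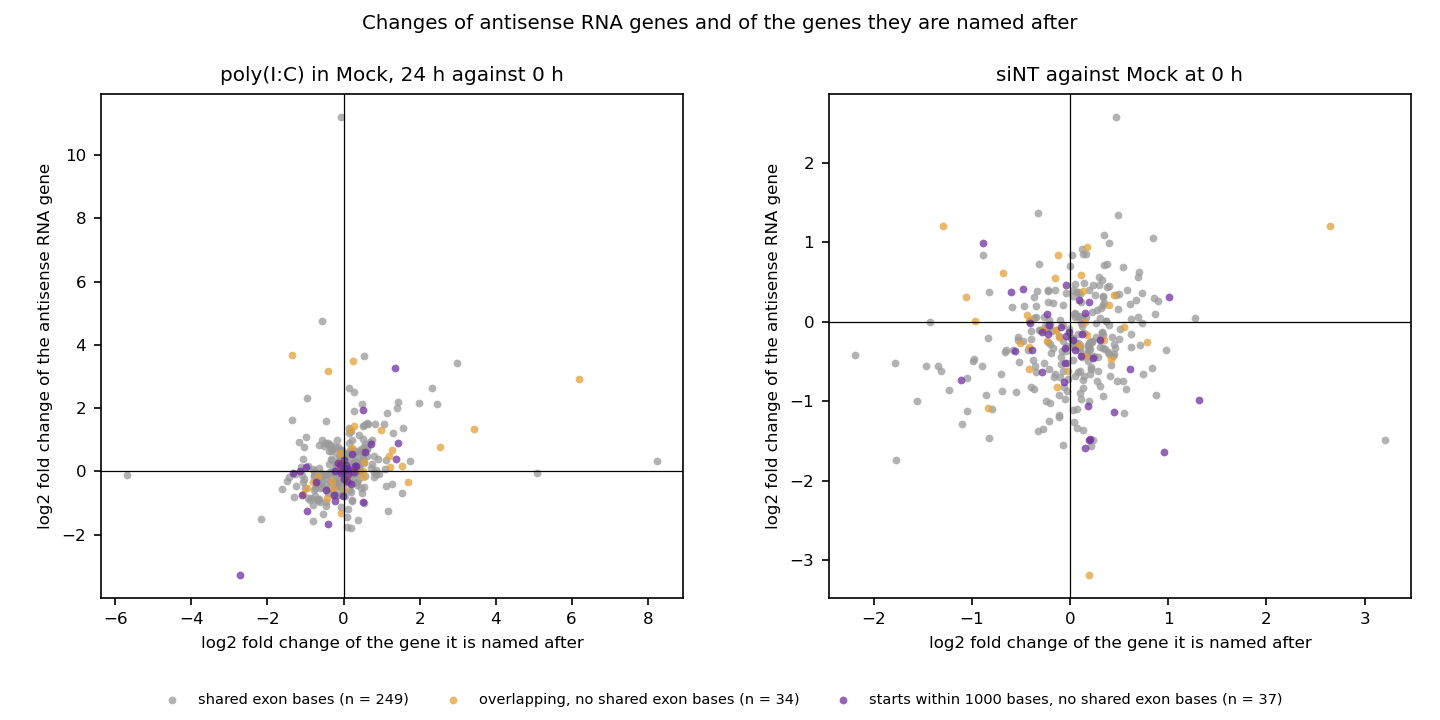
Log2 fold change of each antisense gene (vertical axis) against that of its host (horizontal axis), with poly(I:C) in Mock on the left and siNT against Mock at 0 h on the right, marked by the arrangement of the pair. Of the 326 tested pairs, 5 that lie apart and 1 on the same strand are not drawn. Over all tested pairs called on both sides, 75 of 100 had equal sign in the left comparison and 32 of 61 in the right.

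Some pairs called in opposite directions stood out. At 0 h siELMO1 against both controls had 10 pairs in the same direction and 8 opposite, or 12 and 10 without siELMO1 0 h replicate 1. KDM4A-AS1 was at 0.245, 0.126 and 0.340 CPM in siELMO1, 0.719, 0.771 and 0.588 CPM in Mock and 0.956, 0.872 and 0.614 CPM in siNT, while the histone demethylase KDM4A was at 77.0, 76.0 and 76.2, 52.7, 50.9 and 48.4 and 66.5, 64.9 and 62.4 CPM. Against Mock they changed on the log2 scale by -1.52 ± 0.39 and 0.59 ± 0.05 (adjusted p of 0.0033 and 1.5e-08). CALCRL-AS1 was lower (-0.70 ± 0.22 and -1.31 ± 0.22) while CALCRL, the receptor for adrenomedullin, was higher (1.25 ± 0.33 and 1.93 ± 0.34). CCDC18-AS1 was higher (0.81 ± 0.18 and 1.70 ± 0.19) while CCDC18, a coiled-coil protein, was lower (-1.04 ± 0.11 and -0.49 ± 0.11). With poly(I:C) in Mock, ROR1-AS1 went from 0.0459, 0.0270 and 0.0384 to 0.419, 0.696 and 0.377 CPM, and ROR1, a receptor kinase-like protein, fell by 1.34 on the log2 scale. SRD5A3-AS1 went from 0.0459, 0.0676 and 0.0256 to 1.37, 0.563 and 1.94 CPM, and SRD5A3, an enzyme of dolichol synthesis, fell by 0.56. Both antisense genes started from a few counts per library. They reached the 1 CPM of the filter only in libraries at 24 h, so that their rises are descriptions.

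By the class of the host, the counts with poly(I:C) in Mock are to be read beside the 25.9% and 14.8% of all antisense genes that rose and fell, and no class was tested against these shares. Of 25 with zinc finger or homeobox hosts 5 rose and 4 fell, of 13 with other transcription and chromatin hosts 4 rose and 2 fell, and of 18 with transporter or channel hosts 4 rose and 3 fell. Of 26 with signalling, GTPase or traffic hosts 7 rose and 3 fell, of 7 with matrix and adhesion hosts 2 rose and 2 fell, and of the 6 with cell cycle hosts 1 rose and 2 fell. Of the 7 with hosts of innate immunity 2 rose, ICAM4-AS1 and PSMB8-AS1, and in siELMO1 TNFRSF10A-AS1 rose as well. The other 269 gave 71 that rose and 39 that fell. The members of these groups that are named here were picked after their values were seen.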

How the data were processed

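RNA from 18 EA.hy926 libraries (6 conditions, 3 replicates each) was made into libraries with a stranded mRNA kit, read as paired ends and aligned by the authors to GRCh38 with STAR. The deposited values are estimated counts (expected counts) per gene and per transcript, which the authors made with StringTie and its count script from coverage, so that 1 read pair can give more than 1 count. They are whole numbers and are not normalized. The strand setting and read length of that step are not given in the sources used here.

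The members, the lists of host groups and the rule for named genes (the largest changes called in each comparison at a mean of at least 1 CPM in the higher group, the 5 highest levels, the pairs with the largest changes in the same or in opposite directions, and a fixed list of genes whose host the study names) were chosen with earlier results of these data known. All 15167 genes that passed the filter were fitted together with edgeR 4.0.16 (R 4.3.3; 6 group means, TMM factors of 0.958 to 1.06, biological coefficient of variation of 12.2%), and the two-sided quasi-likelihood test was adjusted by Benjamini-Hochberg over them. The step was tested on simulated data. Levels are CPM after TMM scaling, and levels per length (TPM) came from the deposited transcript counts and GENCODE lengths. At the depth of 40.4 to 73.9 M counts, 3 counts, the limit that a count of 0 allows, are 0.0406 to 0.0743 CPM. Promoter windows came from RefSeq, which held 278 of the 371 genes. Residuals of Mock and siNT at 24 h correlated by replicate number (r of 0.288, 0.335 and 0.250 over 9644 genes), and those of siELMO1 at 0 h and siNT at 24 h did so too (0.218, 0.203 and 0.119), which was taken as pairing of these groups; both of the latter enter the difference of the responses. Alternatives were DESeq2 1.42.0, limma-voom (limma 3.58.1), library totals, filterByExpr and no filter, only the groups compared, the replicate number as a block and each library left out.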

Additional observations from a re-analysis of the deposited data

Results flagged for a closer look

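The response to poly(I:C) differed between siELMO1 and siNT, by the interaction term of edgeR's quasi-likelihood fit, in 19 antisense genes with a higher and 38 with a lower log2 fold change in siELMO1. Of the genes named for this difference, siELMO1 minus siNT on the log2 scale, it was 2.02 for DIRC3-AS1 and 2.00 for FRMD6-AS2, and it was -2.44 for PTOV1-AS1, -1.71 for UBQLN1-AS1 and -1.59 for PRKAR2A-AS1, whose adjusted p was 0.048, and 0.064 with the replicate number as a block. For IQSEC3-AS1 the fitted difference was 8.00, a value that depends on the prior count because all 3 siELMO1 libraries at 0 h held 0 counts. DIRC3-AS1 and IQSEC3-AS1 reached the 1 CPM of the filter only in siELMO1 at 24 h, so that their differences are descriptions. Both sides of the comparison use the siNT and siELMO1 libraries at 0 h, in which UBQLN1-AS1, PTOV1-AS1 and PRKAR2A-AS1 were lower in siNT than in Mock. Whether the reported death of siNT cells after poly(I:C) bears on these differences was not tested.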

How the results depend on the processing

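Of the counts of antisense genes called in the 8 comparisons, 221 values under the alternatives stayed within 1.5 times the reported one and 11 did not, and no named change reversed. Without a filter on low counts, 16 were higher in siELMO1 at 0 h, 5 lower in siELMO1 at 24 h, 11 and 21 higher in siNT than in Mock at 0 h and 24 h, and 22 had a smaller response in siELMO1 than in siNT. With 1 library left out, the number higher in siELMO1 at 0 h ran from 20 to 35 (21 without Mock 0 h replicate 1, 20 without Mock 0 h replicate 2 and 21 without siELMO1 0 h replicate 3), and the number higher in siNT at 0 h from 12 to 19 (12 without Mock 0 h replicate 1, 13 without Mock 0 h replicate 2 and 14 without siNT 0 h replicate 1). The cause of these shifts was not tested. The fit without a filter also adjusts over a larger number of genes. Named changes kept their call under 1358 settings and lost it under 43, in CALCRL-AS1, IQSEC3-AS1, MATN1-AS1, PKN2-AS1, PRKAR2A-AS1, RTCA-AS1, SLC7A11-AS1 and VIM-AS1. PRKAR2A-AS1 lost its call under 14 of them. With the replicate number as a block, siNT against Mock at 24 h gave 34 higher and 88 lower, of which 32 and 87 were called in both fits, and no named call there changed. The poly(I:C) response of siELMO1 against siNT holds a second pair of groups that met the pairing rule (siELMO1 at 0 h and siNT at 24 h), and with the block 23 were higher and 38 lower there, with an adjusted p of 0.064 in place of 0.048 for PRKAR2A-AS1. In the other comparisons the block gave between 11 and 100 calls in each direction. With library totals, 33.7% of the calls against Mock at 0 h in siELMO1 were higher, against 46.8% with TMM factors. At 1 CPM a library of this depth holds some 40 to 74 counts, which limits the precision for the 112 genes under that level.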
